A study of Mus musculus with 2 samples.

Results

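Accessible chromatin was examined at 10 genes of meningeal and mesenchymal cells, out of 21938 protein-coding genes, in the midbrain of mouse embryos. The genes were chosen by name: the fibrillar collagen genes Col1a1, Col1a2 and Col3a1, the fibronectin gene Fn1, the cytochrome P450 gene Cyp1b1, the transcription factor genes Foxc1, Foxc2, Foxd1 and Twist1, and the receptor gene Pdgfrb. All 10 were found by symbol in the mm10 gene annotation. DNase-seq maps open chromatin by sequencing the ends of DNA fragments released by a nuclease, and was applied to midbrain tissue at embryonic day 14.5. There was 1 group of 2 biological replicates from mice of strain B6NCrl described as healthy, with tissue of male and female embryos combined in each replicate. The labels give both replicates the same donor entry and name no genetic change or treatment, and how many embryos were combined is not given. With 1 group the design holds no contrast between conditions, so the results are levels and their agreement between the replicates, with no test.

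The meninges are layers of mesenchymal tissue that wrap the brain, built by fibroblast-like cells that come from neural crest and mesoderm. These cells secrete collagens and other matrix proteins and release signals that act on the brain beneath them. Pericytes, the mural cells of small blood vessels, share part of this programme and enter the brain with its vessels. An accessible promoter is usual for a transcribed gene, but promoters rich in CpG dinucleotides are often accessible in cells that do not transcribe the gene, and genes for developmental transcription factors commonly have such promoters.

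The authors' lists held 710176 peaks with a median value of 6 in replicate 1 and 267958 peaks with a median value of 51 in replicate 2. Nearly all are 150 bp wide, and the value is a whole number of at most 150 that is not scaled to a common depth. Values are therefore the authors' own and are compared only within a replicate. Read depth is unknown, and the spread between the replicates may be partly technical. A peak counts as shared here if any peak in the list of the other replicate covers 1 bp or more of it, which held for 24.7% of replicate 1 peaks and 64.0% of replicate 2 peaks. In bulk tissue, fewer cells of a type and less accessibility per cell cannot be told apart, and the absence of a peak says only that none was called.

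A promoter peak, meaning one that overlapped the 1000 bp either side of any annotated transcript start, was found at 9 of the 10 genes in replicate 1 and at all 10 in replicate 2. Over all protein-coding genes the shares were 75.8% and 72.4%. The promoter peaks of both replicates overlapped at 8 genes, against 68.9% of all genes. The exceptions were Col3a1, with a peak in each replicate at different places, and Pdgfrb, with a peak in replicate 2 alone. Counting Col3a1, 9 genes had a promoter peak in each replicate, against 69.9% of all genes. Within 150 bp of the gene's 5′ end, a narrower window chosen after the data were seen, 6 genes had a peak in replicate 1 and 8 in replicate 2, against 59.3% and 59.2% of all genes. The 6 with a shared peak there, against 54.1% of all genes, were Fn1, Cyp1b1, Foxc1, Foxc2, Foxd1 and Twist1. None of the collagen genes was among them. A hotspot, one of the wider accessible regions that the authors called, covered the 5′ end itself at 6 genes in replicate 1, 7 in replicate 2 and 6 in both, against 58.4%, 61.9% and 56.8% of all genes.

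The strongest promoter peak of each gene was weak or average for a gene that had one. Over all genes with a promoter peak the median of the strongest value was 86 in replicate 1 and 136 in replicate 2. Cyp1b1, with 86 and 132, was the only gene of the 10 to reach the median in replicate 1, and none reached it in replicate 2. Ranked by percentile among genes with a promoter peak, Cyp1b1 stood at 50.1 in replicate 1 and 41.7 in replicate 2, Col1a1 at 47.7 and 37.8, and Fn1 at 36.7 and 41.7, ranges that overlap. The transcription factor genes followed. Foxc1 stood at 32.4 and 32.5 and Foxc2 at 35.8 and 23.5, so that the first lay inside the range of the second. Foxd1 stood at 24.0 and 22.02 and Twist1 at 25.4 and 17.2, again with overlapping ranges. Lowest were Pdgfrb at 14.2 in its single replicate, Col1a2 at 15.0 and 7.62, and Col3a1 at 9.93 and 1.39.

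**Figure D1:**
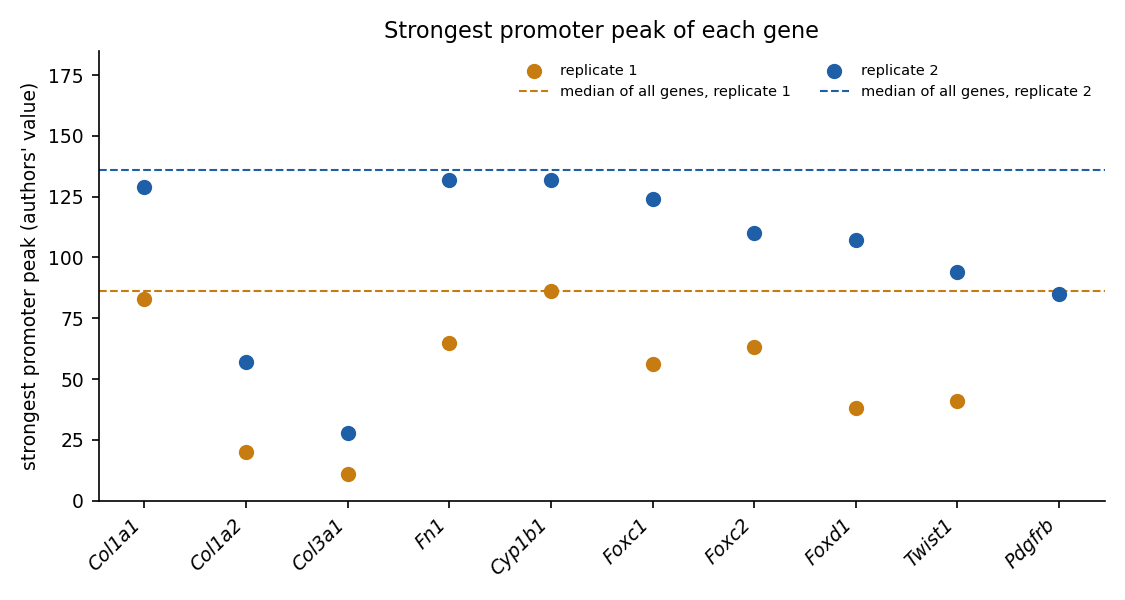
The authors' value of the strongest promoter peak (vertical axis, no unit) is plotted for each gene, with 1 point per replicate and dashed lines at the medians over all genes with a promoter peak (86 and 136). All points lie at or below the line of their own replicate, Pdgfrb has no replicate 1 point, and Col3a1 is lowest with 11 and 28.

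The CpG content of the promoter placed the genes in different company. The 1000 bp either side of the 5′ end held 148 CpG dinucleotides at Foxc2, 150 at Foxd1, 166 at Foxc1 and 184 at Twist1. Of the 1747 genes with 140 or more, 99.0% had a shared promoter peak, and the median strongest values were 104 in replicate 1 and 142 in replicate 2. The 4 transcription factor genes all had a shared promoter peak, as nearly every gene of that class did, but their strongest values of 38 to 63 and 94 to 124 were all below the medians of the class. Cyp1b1, with 102 CpG, and Fn1, with 89, also lay below the medians of their classes, which were 103 and 141 for 100 to 139 CpG and 93 and 137 for 50 to 99 CpG. The class with 25 to 49 CpG held Col1a1 and Pdgfrb, with 44 each, and Col1a2, with 40. Of its 3562 genes, 57.6% had a shared promoter peak and the medians were 41 and 105. For Col1a2 the start that the RefSeq annotation gives lies at +804 bp, so the CpG window is not centred on that start. Col1a1 was the only gene of the 10 whose strongest values, 83 and 129, exceeded the medians of its class in both replicates. These peaks lay at +967 and +947 bp, inside the gene. Neither replicate had a peak within 150 bp of the Col1a1 5′ end. Col3a1 had only 10 CpG, in a class in which 17.5% of 5932 genes had a shared promoter peak and the medians were 9 and 74. Its 11 in replicate 1 was above the first and its 28 in replicate 2 below the second.

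Foxc1 and Foxc2 encode related forkhead transcription factors of mesoderm and neural crest mesenchyme, and Foxc1 is needed for the meninges and skull to form normally. Foxc1 is a gene with a single annotated transcript at chr13:31806633-31812476 on the plus strand. Its strongest promoter peak, with 56 in replicate 1 and 124 in replicate 2, was centred at −62 bp from the 5′ end in both replicates (positions are given along the gene, with a minus sign upstream). The part of that peak before the 5′ end is chr13:31806496-31806632 in GRCm38.p6, the mm10 assembly, and is shown because it is the strongest factor gene promoter in replicate 2. Capitals mark exact matches to motifs: ATTGG, the reverse complement of the NF-Y motif CCAAT, from base 50, GGGCGG, bound by SP and KLF factors, from base 72, and the ETS motif CCGGAA from base 89.
Foxc1 promoter peak: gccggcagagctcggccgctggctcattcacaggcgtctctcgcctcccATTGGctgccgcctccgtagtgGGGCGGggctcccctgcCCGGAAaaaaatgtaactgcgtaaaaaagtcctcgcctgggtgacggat
The peak at Foxc1 was not the strongest in its surroundings. A peak at −5262 bp, at chr13:31801296-31801445, had 67 in replicate 1 and 131 in replicate 2, and held 18 CpG in 150 bp. It is shown because it exceeded the promoter in both replicates. Its capitals mark GGGCGG from base 61, the CTCF core motif AGGGGGC from base 68 and TTCCGG, the reverse complement of CCGGAA, from base 114.
Foxc1 peak at −5262 bp: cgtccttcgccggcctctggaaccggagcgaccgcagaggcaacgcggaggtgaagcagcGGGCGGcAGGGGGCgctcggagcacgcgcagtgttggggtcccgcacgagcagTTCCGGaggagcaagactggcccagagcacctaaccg
A further peak at −13922 bp had 57 and 119, so that 3 places with high values stood upstream of or at the start of Foxc1. Peaks went on downstream of the start. The gene body held 13 peaks with values of 8 to 20 in replicate 1 and 11 peaks with values of 50 to 93 in replicate 2, and 7 of each were shared.

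Foxc2 lies at chr8:121116171-121118895 on the plus strand, also with 1 transcript. Its promoter peak had 63 in replicate 1, at −60 bp, and 110 in replicate 2, at −40 bp. A peak at −2700 bp was stronger, with 96 and 133, and 97.6 as the mean of its percentiles in the 2 whole lists. It lies at chr8:121113396-121113545 and held 10 CpG but no match to any of the 12 motifs searched, so it has no capitals. It is shown as the strongest distal peak of a factor gene, where distal means more than 1000 bp from any protein-coding start.
Foxc2 peak at −2700 bp: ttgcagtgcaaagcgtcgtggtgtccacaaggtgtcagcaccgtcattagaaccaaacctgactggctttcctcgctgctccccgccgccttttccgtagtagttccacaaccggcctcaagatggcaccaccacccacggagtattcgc
The body of Foxc2 held 4 peaks in replicate 1, with values of 10 to 19, all of them shared, and 8 in replicate 2, with values of 41 to 83, of which 5 were shared. The strongest peak in its window, with 116 and 140 at −7780 bp, belongs to the start of Mthfsd, the neighbouring gene. Foxc2 stands in a cluster with the forkhead genes Foxf1 and Foxl1, whose starts are also in the window, and their strongest peaks had 29 and 97 and 22 and 79.

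Foxd1 encodes a forkhead factor known from stromal progenitors, including those that give rise to pericytes, and from the early forebrain and retina. It lies at chr13:98354242-98359305 on the plus strand. Its promoter peak at −31 bp had 38 in replicate 1 and 107 in replicate 2. A distal peak downstream reached more in replicate 1, with 53 at +37129 bp, and 107 at +37089 bp in replicate 2. That peak, at chr13:98391256-98391405, held 19 CpG and none of the motifs, and is shown because it matched the promoter in value and lies 74325 bp from the nearest start of another protein-coding gene, Btf3.
Foxd1 peak at +37089 bp: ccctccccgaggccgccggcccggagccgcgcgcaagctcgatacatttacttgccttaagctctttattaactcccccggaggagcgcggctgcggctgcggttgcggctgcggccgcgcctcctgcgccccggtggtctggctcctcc
The gene body of Foxd1 held 10 peaks of 6 to 26 in replicate 1 and 13 of 61 to 98 in replicate 2, with 8 of each shared. In replicate 2 a hotspot spanned 4481 bp over the 5′ end, at the maximum −log10 q of 100. In replicate 1 the hotspot over the 5′ end was 228 bp wide with a −log10 q of 3.74.

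Twist1, a basic helix-loop-helix factor of cranial mesenchyme and skull sutures, had only 12 of its 40 replicate 2 peaks shared. It lies at chr12:33957671-33959829 on the plus strand. The strongest promoter peak had 41 in replicate 1, at +360 bp in the first exon, and 94 in replicate 2, at +420 bp. The peaks nearest to the 5′ end had 30 at −60 bp and 91 at 0 bp. The RefSeq promoter of Twist1 starts at the same base as the annotated gene. The 250 bases before it, chr12:33957421-33957670, are shown because both replicates had a peak over them. Capitals mark AGGGGGC at −165, TATAAA, the letters of the TATA box, at −126, CCAAT at −89 and CCGCCC, the reverse complement of GGGCGG, at −62, each counted from the start to the first base of the match.
Twist1 promoter: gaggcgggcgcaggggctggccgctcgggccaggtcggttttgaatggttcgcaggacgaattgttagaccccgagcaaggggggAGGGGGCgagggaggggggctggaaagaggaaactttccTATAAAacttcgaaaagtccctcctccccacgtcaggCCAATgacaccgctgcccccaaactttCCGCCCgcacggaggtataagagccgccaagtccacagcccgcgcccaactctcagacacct
Among all 32851 RefSeq promoters of that length, 12.4% hold TATAAA, 33.8% CCAAT, 32.7% GGGCGG and 9.43% AGGGGGC on either strand. A match describes the letters and is not evidence that a factor was bound.

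None of the fibrillar collagen genes had a shared peak within 150 bp of its 5′ end. Col1a1 and Col1a2 encode the chains of type I collagen, the main collagen of fibrous tissue. Col1a1 lies at chr11:94936224-94953042 on the plus strand. No peak and no hotspot lay over its 5′ end in either replicate. Its strongest promoter peak lay in the first intron, with 83 at +967 bp in replicate 1 and 129 at +947 bp in replicate 2, and these were also the peaks nearest to the 5′ end. It is shown because it stands in place of a peak at the start. Capitals mark CTTTGA, the TCF/LEF motif, from base 17 and CCGCCC from base 54.
Col1a1 intron peak, chr11:94937096-94937245: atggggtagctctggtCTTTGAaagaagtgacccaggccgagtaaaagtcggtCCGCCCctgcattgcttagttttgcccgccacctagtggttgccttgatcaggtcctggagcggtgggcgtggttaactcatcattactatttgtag
A further intronic peak at +3267 bp, close to another annotated start, had 50 and 121. Between them, at +1787 bp, a peak with 46 was called in replicate 2 alone. Col1a1 thus had 2 strong shared peaks near its start, both inside the gene.

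Col1a2, at chr6:4504814-4541544 on the plus strand, had lower values. In replicate 1 its single promoter peak had 20, at +1557 bp. Replicate 2 had 3 promoter peaks, of which the one with 48 at +1577 bp was shared. The strongest, with 57 at +857 bp, was called in replicate 2 alone. It covers the start given by RefSeq, which lies at +804 bp from the 5′ end of the annotated gene, where only a short transcript begins. The hotspots there were weak, with a −log10 q of 6 in replicate 1 and 5.15 in replicate 2. The shared peak lies within an exon of Gm43921, an overlapping annotated locus of undetermined type.

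Col3a1 encodes type III collagen, abundant in vessel walls and loose connective tissue. It lies at chr1:45311538-45349706 on the plus strand. Its only promoter peaks had 11 at +613 bp in replicate 1 and 28 at +73 bp in replicate 2, and they did not overlap. The hotspots around them had a −log10 q of 1.53 and 2.04, just past the lowest value that the lists hold, which corresponds to q = 0.05. The 250 bases before the RefSeq start, chr1:45311288-45311537, are shown as the counterpart of the Twist1 promoter. They hold no CpG and 35.2% G+C, against 18 CpG and 62.4% at Twist1. Capitals mark CATTCC, the reverse complement of the TEAD motif GGAATG, at −168, TATAAA at −117, which runs into the E-box CATATG at −111, and the E-box CAGATG at −82.
Col3a1 promoter: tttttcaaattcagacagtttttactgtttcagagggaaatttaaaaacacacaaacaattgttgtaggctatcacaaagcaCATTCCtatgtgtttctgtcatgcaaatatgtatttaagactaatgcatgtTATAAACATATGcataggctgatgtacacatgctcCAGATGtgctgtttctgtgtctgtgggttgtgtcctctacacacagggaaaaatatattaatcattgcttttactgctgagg
The strongest peak of Col3a1 lay in its first intron, at +2593 bp with 37 in replicate 1 and at +2573 bp with 95 in replicate 2. It is shown because it exceeded the promoter peaks in both replicates. Its capitals mark TTTATA, the reverse complement of TATAAA, from base 47.
Col3a1 intron peak, chr1:45314036-45314185: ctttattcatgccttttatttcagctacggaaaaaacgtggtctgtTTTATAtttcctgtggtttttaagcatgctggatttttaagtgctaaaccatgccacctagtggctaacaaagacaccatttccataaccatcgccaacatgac
Col3a1 also had the fewest peaks in its window, 5 in replicate 1 and 6 in replicate 2, with no other protein-coding start in the window.

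Fn1 encodes fibronectin, a matrix glycoprotein to which cells attach, and Cyp1b1 an enzyme that metabolises retinoids and steroids and is known from meningeal and perivascular cells. Fn1 lies at chr1:71585520-71653200 on the minus strand. Its strongest promoter peak, at −111 bp, had 65 in replicate 1 and 132 in replicate 2, and in both replicates a hotspot at the maximum −log10 q covered the 5′ end. The peak overlaps an exon of Apol7d on the other strand, and the data do not tell apart the promoters of the 2 genes. A second peak in the first intron had 53 at +409 bp and 112 at +389 bp. Fn1 had 7 promoter peaks in replicate 1 and 5 in replicate 2, and 5 of each were shared. The peak at −111 bp, printed on the minus strand, is shown as the most G+C-rich of the promoter peaks printed here, with 72.7% G+C and 21 CpG. Capitals mark CCAAT from base 72 and GGGCGG from base 112.
Fn1 promoter peak, chr1:71653236-71653385: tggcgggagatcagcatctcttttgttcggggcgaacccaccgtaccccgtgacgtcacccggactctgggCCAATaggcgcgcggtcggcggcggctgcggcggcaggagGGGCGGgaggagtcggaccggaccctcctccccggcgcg
Cyp1b1 lies at chr17:79701537-79715061 on the minus strand. Its strongest promoter peak stood away from the 5′ end, with 86 at −690 bp and 132 at −710 bp. Next to the 5′ end, at −70 and −90 bp, the values were 13 and 64. The stronger peak is printed on the minus strand because it had the highest value of the 10 genes in replicate 1. It holds CCGCCC from base 11 and GCCCCCT, the reverse complement of the CTCF core, from base 13, and these overlap in 1 run of capitals. No match to TNGCGTG, the motif of the aryl hydrocarbon receptor, lay in it.
Cyp1b1 upstream peak, chr17:79715696-79715845: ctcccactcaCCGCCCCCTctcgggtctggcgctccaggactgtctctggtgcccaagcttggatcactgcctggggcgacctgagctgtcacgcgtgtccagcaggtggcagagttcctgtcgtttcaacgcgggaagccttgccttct
Within the gene a peak in an exon had 32 at +1270 bp and 103 at +1210 bp. Farther on, 5 peaks between +2930 and +6690 bp, with values of 39 to 48, were called in replicate 2 alone.

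Pdgfrb encodes the receptor through which platelet-derived growth factor B holds pericytes to the vessel wall. It lies at chr18:61045150-61085061 on the plus strand. No promoter peak was called in replicate 1. In replicate 2 a peak with 85 stood at −19 bp, in a hotspot 478 bp wide at the maximum −log10 q. The nearest replicate 1 peak lay 3410 bp away. Inside the gene the replicates shared 6 peaks. The strongest of them, in an intron, had 73 at +23421 bp in replicate 1 and 113 at +23441 bp in replicate 2, and another had 39 at +7761 bp and 97 at +7801 bp. An upstream peak at −5139 bp had 39 and 100. Pdgfrb was therefore the only gene of the 10 with strong shared peaks in its body and a promoter peak in a single replicate.

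**Figure D2:**
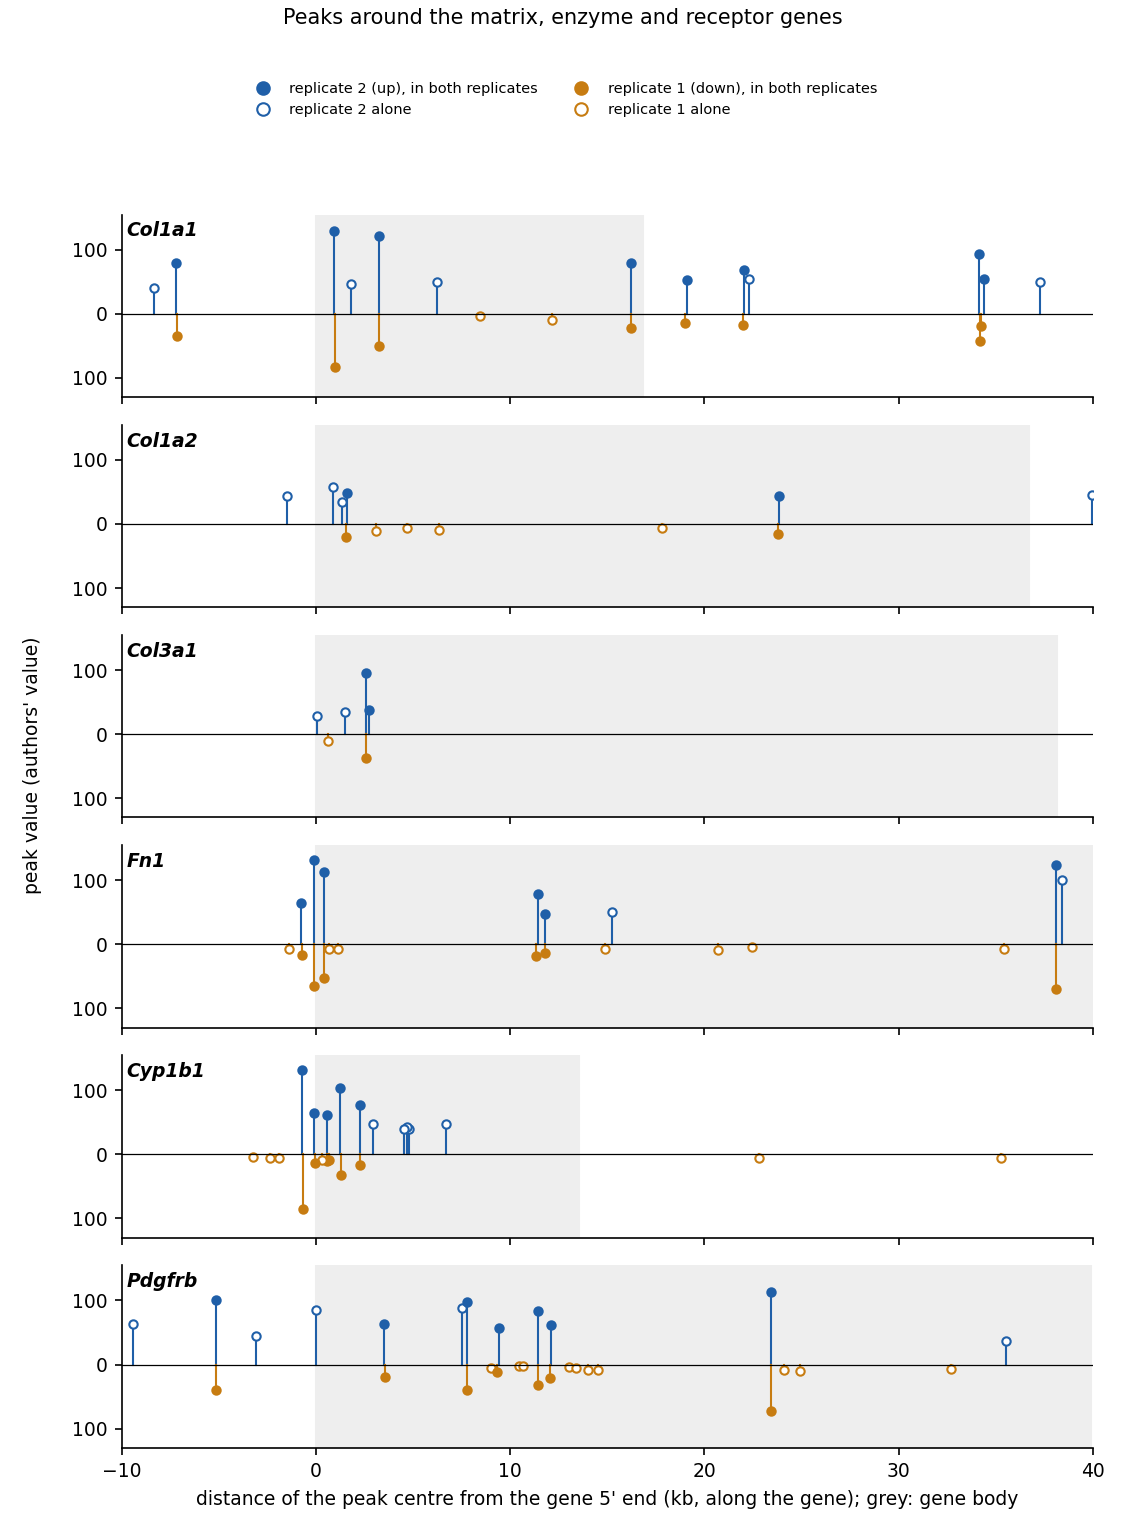
Peaks around the matrix, enzyme and receptor genes are plotted by distance from the gene's 5′ end (horizontal axis, kb) and by the authors' value (vertical axis, replicate 2 upward and replicate 1 downward), with filled points for peaks that overlap the other replicate. Grey marks the gene body. The strongest promoter peaks of Col1a1 (83 and 129) lie inside the gene and not at 0, and Pdgfrb has an open point at 0 with a value of 85.

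**Figure D3:**
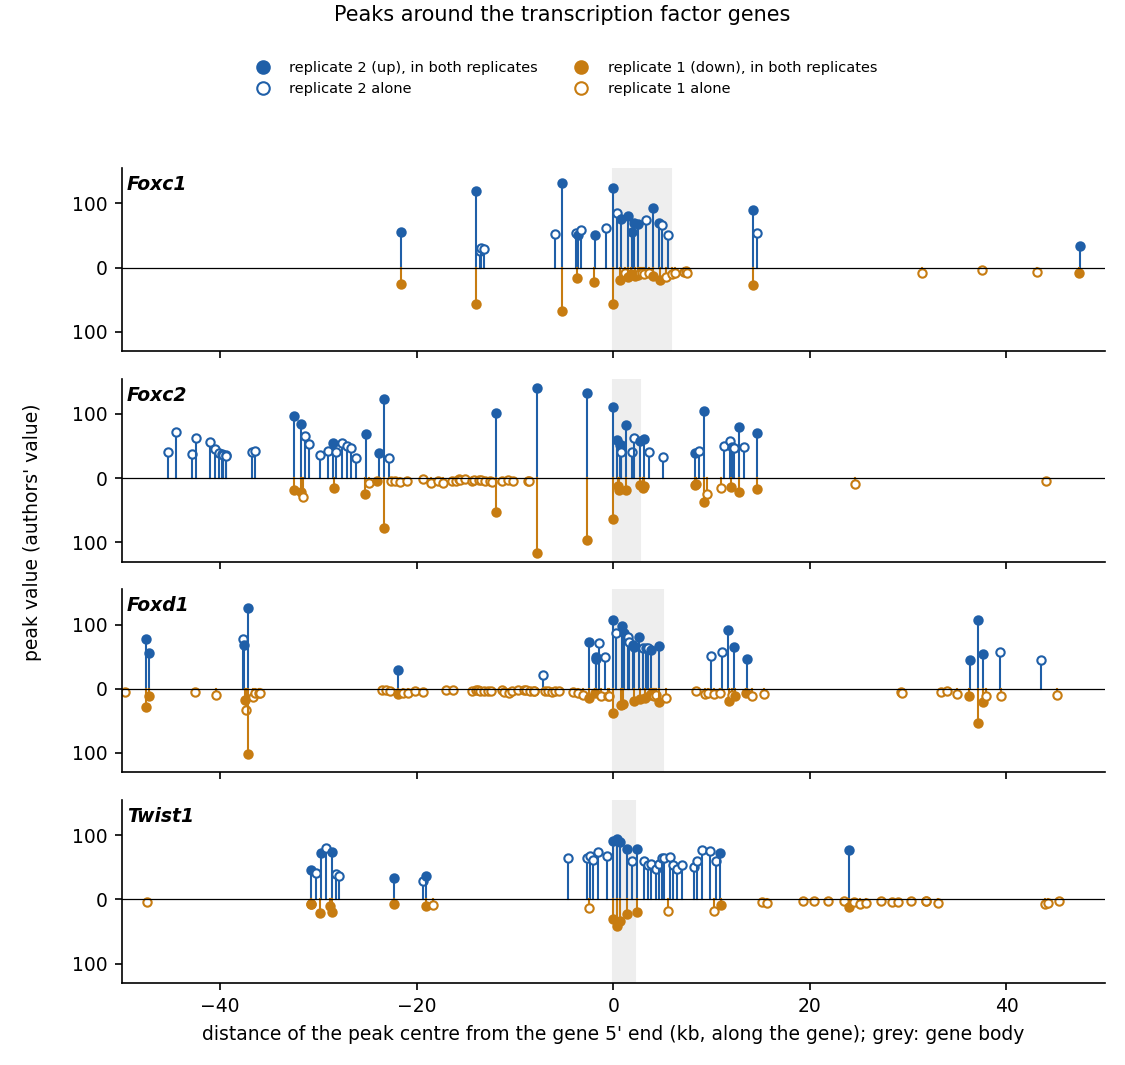
The same plot for the transcription factor genes covers 50 kb either side of the 5′ end. Replicate 2 has dense rows of peaks over each gene, which at Twist1 go on as open points to +10480 bp with values of 47 to 77, and replicate 1 has rows of open points, with values of 2 to 9, upstream of Foxd1.

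In the gene bodies and the 50 kb either side, counted by peak centre, replicate 1 had 364 peaks and replicate 2 had 260. Of the replicate 1 peaks 140 were shared (38.5%, exact binomial 95% interval 33.4% to 43.7%), against 24.7% of the whole list. The other 224 were found in replicate 1 alone. Of the replicate 2 peaks 137 were shared (52.7%, interval 46.4% to 58.9%), against 64.0% of the whole list. The other 123 were found in replicate 2 alone. The intervals cover counting error only. They treat peaks as independent, although some peaks of a list overlap or lie close together, so they may be too narrow. In replicate 1 the shared peaks had a median value of 19 and those found there alone 5.5, with a highest value of 43, near Sgca in the Col1a1 window. In replicate 2 the medians were 71 and 50, and the highest value of a peak found there alone was 100, at +38409 bp in an intron of Fn1, 130 bp from a replicate 1 peak. Of the peaks found in a single replicate, 23 in replicate 1 and 32 in replicate 2 lay within 150 bp of a peak of the other replicate. A hotspot of the other replicate overlapped 25 of those found in replicate 1 alone and 12 of those found in replicate 2 alone. The shares of such peaks over the whole lists are not given here.

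**Figure D4:**
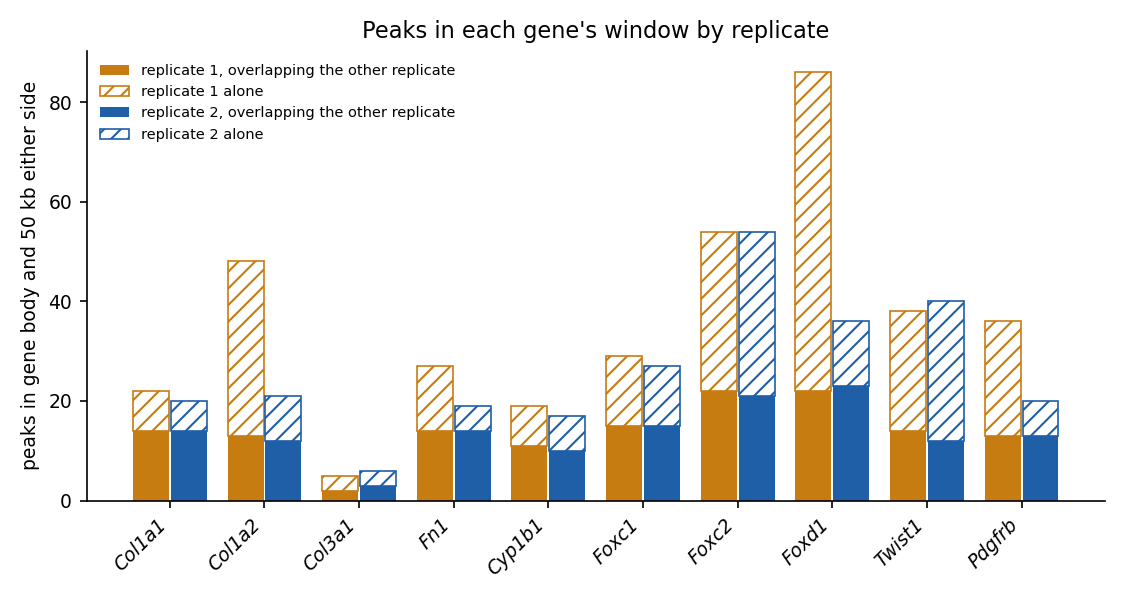
Bars give the number of peaks in the body and 50 kb either side of each gene (vertical axis, from 0), split into peaks that overlap the other replicate (filled) and peaks found in a single replicate (hatched). Foxd1 has the most replicate 1 peaks, 86 with 22 shared, Foxc2 has the most replicate 2 peaks, 54 with 21 shared, and Col3a1 has the fewest of each.

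Whether a peak was shared followed its value in both lists, so the shared peaks of each window were set beside the number that the whole list gives for peaks of the same values. For replicate 1 that number was 133.3 and the observed 140 was 1.05 times as large. For replicate 2 it was 181.8, and the observed 137 was 0.754 times as large. Most of the shortfall in replicate 2 lay at the transcription factor genes. Twist1 had 12 shared of 40 replicate 2 peaks where the rate gave 29.5, a ratio of 0.407. Foxc2 had 21 of 54 where it gave 34.5, a ratio of 0.608, and Foxc1 had 15 of 27 where it gave 19.8, a ratio of 0.756. The other 7 genes had ratios of 0.835 at Foxd1 to 1.09 at Col3a1. Over the 16693 genes with at least 10 replicate 2 peaks in their window the median ratio was 0.969, with quartiles of 0.872 and 1.07, and neighbouring genes share peaks. Among these genes 0.108% had a lower ratio than Twist1, 1.48% a lower ratio than Foxc2 and 7.997% a lower ratio than Foxc1. In replicate 1 the same 3 genes had ratios of 1.24, 1.11 and 1.06, so no shortfall was seen there.

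Over the whole replicate 2 list, the share of peaks that overlapped replicate 1 moved with CpG content as well as value. Among replicate 2 peaks with values above 60 and up to 80 it was 90.6% with at most 1 CpG, 86.8% with 2 to 4, 80.2% with 5 to 9 and 67.2% with 10 or more. Among the peaks with those values in the windows of the 10 genes, 40 of 67 were shared, against 85.2% in the whole list. With rates taken by value and CpG count together, an alternative added after the data were seen, Twist1 had a ratio of 0.419, Foxc2 0.676, Foxc1 0.839 and the 10 genes together 0.793. The number of shared replicate 2 peaks at that rate was 172.8 for the 10 genes, against 181.8 by value alone, and the part of CpG content in the shortfall was not tested.

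**Figure D5:**
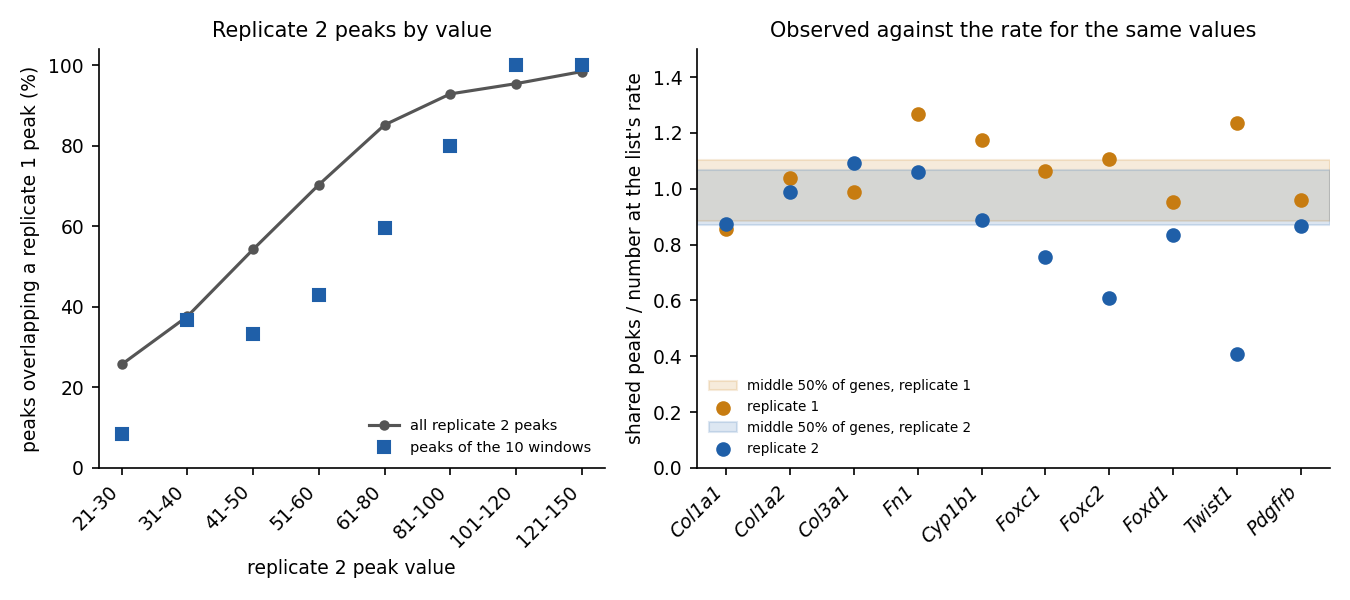
The left panel gives the percentage of replicate 2 peaks that overlap a replicate 1 peak (vertical axis) by class of peak value, for the whole list (grey line) and for the 10 windows (squares). The right panel gives for each gene the shared peaks divided by the number at the list's rate, with bands for the middle 50% of genes, and Twist1 and Foxc2 lie lowest in replicate 2 with 0.407 and 0.608.

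In some windows the peaks found in a single replicate came in long rows. The longest replicate 2 row was 1 peak at Col1a1 and 2 peaks at Fn1, Foxd1 and Pdgfrb. The rows named are the longest of their windows, and row lengths over all genes were not counted. At Twist1, 16 consecutive replicate 2 peaks from +3080 to +10480 bp, with values of 47 to 77 and a median spacing of 440 bp, overlapped no replicate 1 peak, and 2 replicate 1 peaks lay between them. Within 10 kb of the Twist1 5′ end, replicate 2 had hotspots over 11103 bp, more than at 99.6% of genes, and replicate 1 over 1094 bp, more than at 37.8% of genes. The median over all genes was 1768 bp in replicate 2 and 1514 bp in replicate 1. Foxc1, Foxc2 and Foxd1 likewise had more replicate 2 hotspot sequence than 98.6%, 98.5% and 98.2% of genes, with 7250, 7217 and 6768 bp. In replicate 1 they had 4824, 3876 and 8188 bp, more than at 90.9%, 87.0% and 96.5% of genes. Wide replicate 2 cover was thus seen at all 4 factor genes, and in replicate 1 at all of them except Twist1. It was not confined to them. Cyp1b1 had 4583 bp in replicate 2, more than at 93.8% of genes, and 3154 bp in replicate 1, more than at 81.6%. Other genes with as many promoter CpG were not compared.

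At Foxc2, 13 consecutive peaks from −45300 to −36500 bp, with values of 35 to 72, were called in replicate 2 alone, and their nearest protein-coding start was that of Foxf1. Rows of 10 or more peaks found in replicate 1 alone had values of 1 to 11, in a list with a median of 6. In the whole replicate 1 list, 1.1% of peaks with values up to 5 and 14.0% of those above 5 and up to 10 were shared. A shorter replicate 1 row, of 6 peaks at Foxc1, had values of 6 to 14. At Foxd1 31 consecutive peaks from −21391 to −3071 bp had values of 2 to 9, and at Foxc2 20 peaks from −22600 to −12320 bp had values of 1 to 8. Col1a2 had 14 such peaks from +56857 bp on with values of 3 to 11, Twist1 had 13 from +24460 bp on with 2 to 7, and Pdgfrb had 10 from −21279 to −12579 bp with 2 to 8. At the matrix genes Col1a1, Col3a1 and Fn1 no row of either replicate exceeded 4 peaks.

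Named by the rule of the strongest peak found in a single replicate, the replicate 2 peaks of Foxc1 and Foxd1 lay in exon sequence past the start, with 85 at +378 bp and 87 at +269 bp. The Col1a1 peak, with 65 at +56727 bp, lay 1916 bp from a start of Ppp1r9b, and the Col3a1 peak, with 34 at +1513 bp, lay in an intron. In the same replicate the Twist1 peak, with 80 at −29200 bp, lay at the start of Ferd3l, and the Pdgfrb peak, with 89 at +7501 bp, lay in an intron. The replicate 1 peaks of this kind had values of 9 at Fn1 and Cyp1b1, 11 at Col3a1, 12 at Pdgfrb, 14 at Foxc1, 15 at Col1a2, 18 at Twist1, 29 at Foxc2 and 33 at Foxd1. Those of Foxc2 and Foxd1 lay at the starts of Foxf1 and Btf3. Several lay next to a peak of the other replicate. The gap was 10 bp for the replicate 1 peaks of Foxd1 and Twist1, 50 bp for Foxc1 and Foxc2 and 90 bp for Cyp1b1. Those peaks also overlapped a replicate 2 hotspot. For the other genes the gap was 230 bp at Col1a1 to 5290 bp at Fn1. The replicate 2 gaps ran from 110 bp at Pdgfrb to 7690 bp at Foxc2. Within their own lists, the replicate 1 peaks of Foxd1 and Twist1 stood at the percentiles 93.0 and 86.0, and their replicate 2 peaks at 79.7 and 75.8.

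Shared distal peaks numbered 3 at Col3a1, 7 at Cyp1b1 and at Twist1, 9 at Col1a1 and at Fn1, 11 at Col1a2, 12 at Foxc2 and at Pdgfrb, 13 at Foxc1 and 19 at Foxd1. The median of 10 stood against 7 over all protein-coding genes, or 7.87 against 5.02 per 100 kb of window. Per 100 kb, Foxd1 with 18.1 stood at the percentile 97.4 among genes, Foxc1 with 12.3 at 90.3 and Foxc2 with 11.7 at 88.5, whereas Col3a1 with 2.17 stood at 24.1. Distal peaks so defined include peaks inside a gene. The bodies of Foxc1, Foxc2 and Foxd1 held 7, 5 and 8 shared replicate 2 peaks, not all of them distal. Some of the strongest distal peaks belong to the surroundings of other genes. At Col1a1 the peak with 94 and 139 lay 1164 bp from a start of Ppp1r9b, and that with 108 and 133 lay 2804 bp from a start of Sgca. At Fn1 the strongest distal peak, with 70 at +38129 bp in replicate 1 and 123 at +38109 bp in replicate 2, lay in an intron of the gene, and the next, with 77 at −20571 bp over a replicate 1 peak of 23, lay upstream. At Cyp1b1 the strongest, with 43 and 94 at +53530 bp, lay 10869 bp from a start of Rmdn2, and the next had 36 and 78 at +51030 bp. At Col1a2, which has no other protein-coding start in its window, the strongest lay past the gene with 27 and 93, at +53077 bp in replicate 1 and +53057 bp in replicate 2. The next had 27 at +50737 bp and 68 at +50777 bp. At Col3a1 the second of its shared distal peaks, with 37 at +2713 bp in replicate 2, overlapped the same replicate 1 peak as the first. At Pdgfrb the strongest, with 62 and 117 at −33179 bp, lay 2251 bp from a start of Slc6a7. At Foxc2 the second, with 78 at −23300 bp and 123 at −23320 bp, lay 8465 bp from a start of Foxf1, and at Foxd1 the second, with 87 at +1109 bp over a replicate 1 peak of 23, lay in the exon. At Twist1 the strongest 2 lay at +1420 bp and +2380 bp in replicate 2, each with 78, over replicate 1 peaks of 23 and 20.

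Exact motif matches on either strand were counted in the 150 bp of the shared peaks. GGGCGG was held by 19 of the 35 shared peaks of these windows within 1000 bp of a protein-coding start (54.3%), against 38.9% of 30835 such peaks in the whole list, and by 12 of the 102 distal ones (11.8%), against 5.58% of 140429. Of the 35 peaks near a start, 16 lay near a start of another gene, so the share is not that of the 10 promoters. CAGATG was held by 9 distal peaks (8.82%, against 15.4%) and CTTTGA by 8 (7.84%, against 12.4%). TGTTTAC, a forkhead motif, was held by 2 distal peaks (1.96%, against 2.03%), GGAATG by 10 (9.80%, against 9.12%) and TGANTCA, the AP-1 motif, by 4 (3.92%, against 5.09%). The median G+C of the distal peaks was 51.0%, against 49.3% in the whole list, and of the peaks near starts 64.0%, against 62.7%. RefSeq promoters matched 6 of the 10 genes: Col1a2, Col3a1, Cyp1b1, Foxc1, Foxd1 and Twist1.

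A wider list of 79 genes, chosen by name as meningeal, mesenchymal or mural, gave a similar picture at promoters. A promoter peak was found at 69 in replicate 1, at 74 in replicate 2 and at 64 (81.0%) with overlap, against the 68.9% of all genes. The list was not restricted to genes silent in neural cells. In bulk tissue the cells that a peak comes from are not known, so these counts do not point to mesenchymal cells. Highest and lowest refer here to the mean percentile of genes with a promoter peak in each replicate. Of 30 matrix and cytoskeleton genes 25 had a shared promoter peak. The highest were Col11a1 (94 and 135) and Vim (83 and 135), and the lowest Dcn (15 and 51) and Bgn (7 and 28, without overlap). Col6a3, Lum and Nid1 had no promoter peak in either replicate. Of 22 further mesenchymal transcription factor genes 20 had a shared promoter peak, led by Snai1 (104 and 139) and Zeb1 (96 and 138), and lowest at Foxl1 (22 and 79) and, without overlap, Prrx2 (4 and 58). Meox1 had no promoter peak in either replicate. Of 14 genes for meningeal enzymes, transporters and signals 12 had a shared promoter peak, with Rdh10 (96 and 139) and Ngfr (73 and 140) highest and Slc6a13 (14 and 57) among the lowest.

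The list of mural cell genes is the closest to Pdgfrb. Of its 13 genes 8 had a promoter peak in replicate 1 and all 13 in replicate 2, with overlap at 7 (53.8%), against 75.8%, 72.4% and 68.9% of all genes. The highest values were at Pdgfra (69 and 131) and Notch3 (71 and 128). Pdgfra is also expressed by fibroblasts and oligodendrocyte precursors, and Pdgfb, another gene of the list with a shared peak, encodes a ligand made by endothelial cells, so the count does not rest on mural genes alone. Among the genes with a promoter peak in each replicate, the lowest were Abcc9 (14 and 63) and, without overlap, Vtn (16 and 53). Like Pdgfrb, 5 of them, Rgs5, Anpep, Cspg4, Acta2 and Cnn1, lacked a promoter peak in replicate 1, and in replicate 2 had values of 70, 71, 71, 37 and 37. The genes were singled out here after their values were seen.

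Genes that mark other cell types, of the brain and of other tissues, give the setting. Shared promoter peaks were found at 7 of 7 midbrain identity genes and 7 of 7 pan-neuronal genes, at 5 of 7 endothelial genes, at 2 of 7 myeloid and 2 of 7 erythroid genes, and at 5 of 7 skeletal muscle and 3 of 7 keratinocyte genes, against 68.9% of all genes. The endothelial and skeletal muscle shares, 71.4% each, were close to that of all genes. The ratio of shared replicate 2 peaks to the list's rate was 0.805 in the windows of the midbrain identity genes. It was 0.827 in those of the further mesenchymal transcription factor genes, and 0.930 to 1.05 in the windows of the other lists. The further mesenchymal list includes Foxf1 and Foxl1, whose starts lie in the window of Foxc2. Its ratio therefore counts some peaks of the Foxc2 window again and is not independent of the shortfall at Foxc2. The shares of these short lists are descriptions, with no test.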

How the data were processed

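DNase-seq peaks and hotspots of 2 biological replicates of embryonic midbrain were used. The labels number the replicates. The assembly is mm10, per the labels. The authors called peaks and hotspots per replicate. Aligner, caller and thresholds: not given in the sources used here. The deposited peak lists give a signal value per peak, and the deposited hotspot lists give a −log10 q value, from the threshold of q = 0.05 to a cap of 100. Values were used only to rank or describe peaks within a replicate.

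Genes were the 21938 protein-coding genes of GENCODE mouse release M21. Sequence was GRCm38.p6, and promoters were RefSeq's on that build. Peaks were joined to genes with Python 3.11.15 and numpy 2.4.6, intervals of shares were exact binomial (scipy 1.17.1), and figures used matplotlib 3.10.9. The joins were tested on simulated intervals. Percentiles are mid-ranks. For the members, the text names the strongest promoter peak of each replicate, the 2 strongest shared distal peaks and the strongest peak found in a single replicate. In each group of the wider list it names the 2 highest and 2 lowest genes by mean percentile, among those with a promoter peak in each replicate. Genes with no promoter peak are named too. The values of 1 gene that this rule selects are not reported here. Motifs were exact matches on either strand to 12 consensus sequences. The genes and lists were chosen with earlier results of these data known, and the CpG classes, the rows of peaks and the 150 bp window were added after the data were seen. Alternatives covered the promoter window, the starts counted, the flank, the overlap, the lengths of the lists and each replicate left out.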

Additional observations from a re-analysis of the deposited data

How the results depend on the processing

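The counts of genes with a promoter peak stayed between 6 and 10 of 10. The 8 genes with a shared promoter peak became 7 with the gene's 5′ end alone and 6 within 150 bp of it, and ranged from 9 to 10 without replicate 2 or replicate 1, where no overlap is asked. The 9 genes with a promoter peak in each replicate became 8 with the 5′ end alone and 6 within 150 bp of it. Over all genes the share with a shared peak also fell, from 68.9% to 54.1% within 150 bp. The shares of all genes for the 5′ end alone are not given here. The shares of window peaks that were shared moved more. With an overlap of at least 75 bp they were 31.9% of replicate 1 and 43.8% of replicate 2 peaks. With as many of the strongest replicate 1 peaks as replicate 2 has, the replicate 1 share was 64.1%, and with only the strongest 50% of each list the shares were 45% and 65.4%. Leaving a replicate out leaves 260 to 364 window peaks in place of 137 shared ones, and a median of 17.5 to 29.5 distal peaks per gene in place of 10. With a flank of 20 kb that median was 6.5. The cause was not tested, except that shorter lists, narrower windows and the loss of the overlap rule change these numbers by construction. Depth is unknown, so a peak called in a single replicate cannot be told apart from one missed in the other.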
